A study of Mus musculus with 2 samples.

Results

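The Notch genes of melanocytes were followed as 10 members among the 32285 genes measured: the receptors *Notch1*, *Notch2* and *Notch3*, the ligand *Jag1*, the nuclear mediator *Rbpj*, the targets *Hes1*, *Hey1*, *Hey2* and *Heyl*, and *Nrarp*, a target that feeds back on the pathway. They were chosen by name, with earlier results of these data known. Single-cell RNA sequencing libraries of sorted melanocytes were used, 1 from early anagen, the onset of hair follicle growth, and 1 from the hair bulb in full anagen. A cell entered when it held at least 1 UMI (unique molecular identifier, a counted RNA molecule) of *Dct*, fewer than 3 of *Krt10* and *Krt14* together, less than 5% mitochondrial UMIs, and more than 10000 UMIs in early anagen or 5000 in the bulb. This left 2785 early-anagen melanocyte stem cells (McSCs) and 3734 bulb melanocytes.

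Both groups came from mice of mixed background and both sexes carrying Dct-rtTA and tetO-H2B-GFP, in which doxycycline chow, given for 4 days, turns on a nuclear green fluorescent protein in cells that use the *Dct* promoter. The early-anagen mice were 8 weeks old and were depilated 4 days before their epidermis was dissociated with trypsin, and the bulb mice were 5 weeks old, in anagen VI, and their microdissected bulbs were digested with collagenase and dispase. Cells of 4 mice were pooled in each library, with no label to separate the mice, so each condition is 1 sample and no test between conditions was made. Intervals are 95% intervals for counting error alone, and age, dissociation, library chemistry (10x v3 in early anagen, v2 in the bulb) and depth cannot be told apart from the stage. A telogen library was not analysed here.

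In Notch signalling, a ligand on 1 cell binds a receptor on its neighbour, and ADAM proteases and γ-secretase then release the receptor's intracellular part. That part enters the nucleus, joins RBPJ and Mastermind proteins and turns on genes such as *Hes1* and *Hey1*, whose products are transcriptional repressors. In the skin, signalling through *Rbpj*, with *Notch1* and *Notch2* as receptors, is known to be needed to keep melanocyte stem cells and hair pigment.

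Markers of cell types were measured in the selected cells. All 8 melanocyte markers stood at 5 CPM (UMIs of the gene per 1000000 UMIs of the group) or more in both libraries. The 8 epidermal markers summed to 27.3 CPM in early anagen and 22.7 CPM in the bulb. In 75 epidermal barcodes of the early-anagen library they summed to 28065 CPM. *Dct*, *Krt10* and *Krt14* had set the selection, so they are no check of it. *Krt5*, *Krt14*, *Krt1* and *Krt10* helped to define the epidermal barcodes, so their level there was fixed in part. Of markers not so used, *Sox10* stood at 120 and 155 CPM and *Kit* at 486 and 108 CPM. *Krt15*, *Perp*, *Trp63* and *Dsp* each stood at 3.72 CPM or less in either library. Hair matrix, fibroblast and pericyte markers summed to at most 9.90 CPM in either library. Endothelial markers summed to 16.1 and 1.66 CPM, with *Cdh5* and *Cldn5* at 0 in both. Nearly all of this was *Egfl7*, at 15.9 and 1.61 CPM, found in 28.5% of early-anagen and 2.30% of bulb cells. Immune markers summed to 18.7 and 7.78 CPM. Schwann cell markers, some of which melanocytes share, summed to 349 and 441 CPM with *Sox2* at 0 in both. Median depth was 24528 UMIs per early-anagen cell and 14286.5 per bulb cell, and no selected barcode occurred in both libraries.

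RBPJ binds the core sequence TGGGAA, which reads TTCCCA on the other strand and was searched on both strands in the 250 bases before the annotated RefSeq start of each gene (GRCm38.p6). RefSeq windows were at hand for 7 of the 10 members, 8 windows in all, and 3 of the 8 held it, 2 overlapping ones of *Rbpj* itself and 1 of *Hey2*. Of all 32851 windows, 21.6% held it. No match was found in those of *Notch1*, *Notch2*, *Notch3*, *Jag1* or *Nrarp*, which says only that these letters are not in this window. The windows of *Hey2* (chr10:30842784-30843033, minus strand) and *Nrarp* (chr2:25180508-25180757, plus strand) are shown because these are target genes that went different ways between the libraries. Capitals mark the motif, which starts 207 bases before the *Hey2* start, and both windows are written 5′ to 3′ towards the gene.
Hey2: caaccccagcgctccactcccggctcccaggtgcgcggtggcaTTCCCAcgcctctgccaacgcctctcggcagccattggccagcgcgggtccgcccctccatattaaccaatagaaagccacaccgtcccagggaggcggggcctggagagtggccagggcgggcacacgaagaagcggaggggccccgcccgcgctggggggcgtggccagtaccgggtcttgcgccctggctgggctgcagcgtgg
Nrarp: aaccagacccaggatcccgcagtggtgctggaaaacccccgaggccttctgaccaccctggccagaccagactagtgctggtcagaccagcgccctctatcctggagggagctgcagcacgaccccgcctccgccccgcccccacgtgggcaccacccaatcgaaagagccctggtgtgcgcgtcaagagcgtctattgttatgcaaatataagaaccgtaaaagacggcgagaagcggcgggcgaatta

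Between the libraries, the ligand *Jag1*, the feedback gene *Nrarp*, both main receptors and *Rbpj* were lower in the bulb, while *Hey1* was higher and *Hes1* and *Hey2* differed little. Of the 10 members, 8 reached 5 CPM in at least 1 library, and 5 of these were at least 2-fold lower and 1 at least 2-fold higher in the bulb. Among all 9456 genes at that level, 30.1% were at least 2-fold lower and 15.5% at least 2-fold higher. Over the 8 members the median of the log2 ratios, bulb over early anagen, was -2.24, and over all genes it was -0.25. With edgeR's TMM factors, which shifted every ratio up by 0.31, the shares of all genes were 23.2% lower and 23.1% higher, and the members counted were again 5 and 1.

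**Figure D1:**
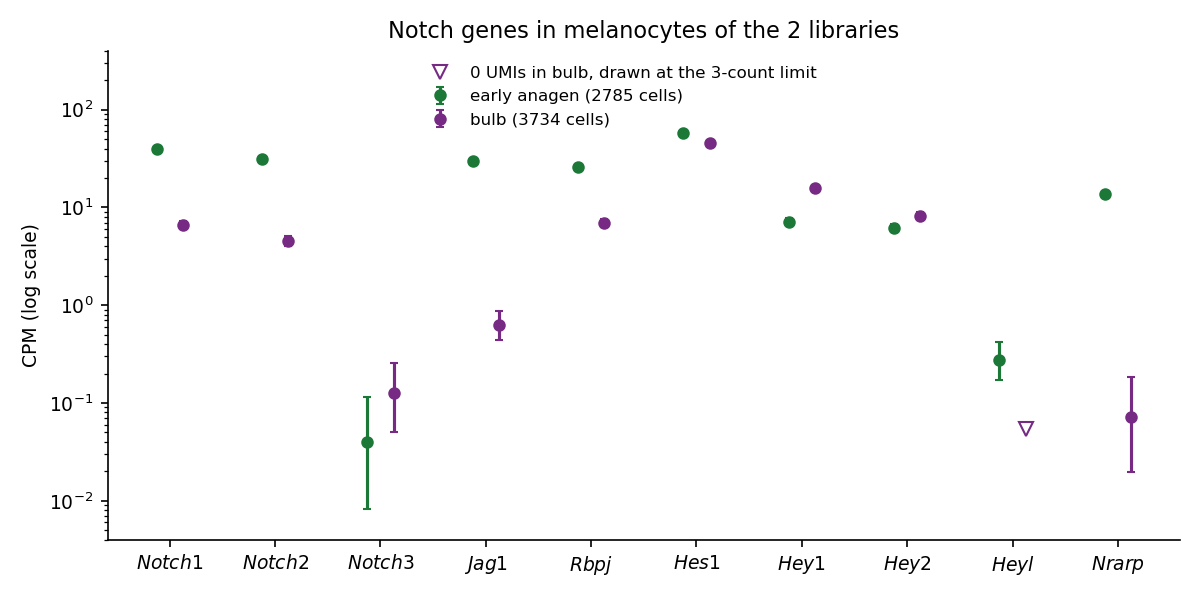
Level of each member in CPM (log axis) in early-anagen McSCs (green) and bulb melanocytes (purple), with 95% Poisson intervals for counting error; the open triangle marks a gene with 0 UMIs. *Jag1* stood at 30.1 and 0.63 CPM and *Nrarp* at 13.6 and 0.07 CPM, while *Hes1* stood at 58.2 and 45.8 CPM.

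*Notch1* (chromosome 2, 26457903 to 26516663, minus strand, GRCm38), a receptor, stood at 39.4 CPM (38.0 to 40.8) in early anagen and 6.60 CPM (5.95 to 7.31) in the bulb, a log2 ratio of -2.58 (-2.74 to -2.42). *Notch2* (chromosome 3, 98013527 to 98150361, plus strand), the other main receptor, stood at 31.4 CPM (30.1 to 32.7) and 4.55 CPM (4.00 to 5.14), a log2 ratio of -2.79 (-2.98 to -2.60). Both receptors were thus lower in the bulb, 5.97-fold and 6.90-fold, with intervals that overlapped. *Notch3*, which marks pericytes and smooth muscle and is also made in epidermis, had 3 UMIs in early anagen and 7 in the bulb, and *Notch4*, an endothelial receptor, stood at 0.79 and 1.27 CPM, so neither was assessed.

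*Jag1* (chromosome 2, 137081456 to 137116644, minus strand), which encodes a membrane-bound ligand, had 2279 UMIs in early anagen and 35 in the bulb, or 30.1 CPM (28.9 to 31.4) and 0.63 CPM (0.44 to 0.87). The log2 ratio was -5.59 (-6.11 to -5.11). Of genes found in both groups and at 5 CPM or more in at least 1, 1.41% had a ratio this low. The other 4 ligands, *Jag2*, *Dll1*, *Dll3* and *Dll4*, were at most 0.24 CPM in early anagen and 0.20 CPM in the bulb, so *Jag1* was the one ligand above 5 CPM in either group. *Jag2* and *Dll1* stood at 24.0 and 10.8 CPM in the epidermal barcodes.

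*Rbpj* (chromosome 5, 53466152 to 53657362, plus strand), the DNA-binding protein on which the receptors' intracellular parts act, stood at 26.0 CPM (24.8 to 27.2) and 6.91 CPM (6.24 to 7.63), a log2 ratio of -1.91 (-2.07 to -1.75). *Nrarp* (chromosome 2, 25180758 to 25183339, plus strand, a single exon), whose product destabilises the released receptor, had 1030 UMIs in early anagen and 4 in the bulb. That is 13.6 CPM (12.8 to 14.5) against 0.07 CPM (0.02 to 0.18), a log2 ratio of -7.57 (-9.45 to -6.21). Of genes found in both groups and at 5 CPM or more in at least 1, 0.424% had a ratio this low.

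The repressors of the Hes and Hey family did not follow *Nrarp*. *Hes1* (chromosome 16, 30064384 to 30067796, plus strand) stood at 58.2 CPM (56.5 to 60.0) and 45.8 CPM (44.1 to 47.6), a log2 ratio of -0.35 (-0.42 to -0.28), near the median of all genes. *Hey1* (chromosome 3, 8663359 to 8667256, minus strand) stood at 7.14 CPM (6.56 to 7.77) and 15.8 CPM (14.8 to 16.9), 2.21-fold higher in the bulb with a log2 ratio of 1.15 (0.99 to 1.30), which became 0.9998, just under 2-fold, with a total that left out the mitochondrial, ribosomal protein and pigmentation genes. *Hey2* (chromosome 10, 30832359 to 30842801, minus strand) stood at 6.19 CPM (5.65 to 6.78) and 8.18 CPM (7.45 to 8.96), a log2 ratio of 0.40 (0.21 to 0.59). *Heyl* had 21 UMIs in early anagen and 0 in the bulb, at least 5.17-fold lower with the bulb set at a limit of 3 counts over the group, and at 0.28 CPM it was not assessed.

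The share of cells that held a UMI is set by depth, so every cell was also thinned to 5000 UMIs. *Notch1* was then found in 17.7% of early-anagen cells (16.3 to 19.2) and 3.03% of bulb cells (2.50 to 3.63), where at full depth it had been in 58.5% and 9.16%. *Jag1* was found in 13.2% (12.0 to 14.6) and 0.321% (0.166 to 0.561), and *Nrarp* in 6.57% (5.68 to 7.56) and 0.0536% (0.00649 to 0.193). *Hes1* was found in 19.7% (18.3 to 21.3) and 17.8% (16.6 to 19.0), and *Hey1* in 3.59% (2.93 to 4.35) and 8.52% (7.64 to 9.46). The order of the libraries for each of these genes was thus that of the CPM.

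At 5000 UMIs per cell, either main receptor was found in 29.3% of early-anagen cells (27.6 to 31.0) and 5.33% of bulb cells (4.63 to 6.10). At least 1 of *Hes1*, *Hey1* and *Hey2*, in contrast, was found in 24.1% (22.5 to 25.7) and 28.01% (26.6 to 29.5). The share with a receptor was thus lower in the bulb, and the share with *Hes1*, *Hey1* or *Hey2* slightly higher. The target *Nrarp*, found in 6.57% and 0.0536% of cells at this depth, was not part of that set. The share with any target, *Nrarp* included, was not computed. *Jag1* shared a cell with *Notch1* or *Notch2* in 116 early-anagen cells (4.17%) and 1 bulb cell (0.0268%). No member was found in 38.1% of early-anagen and 65.7% of bulb cells, and 3 or more were found in 5.46% and 0.348%.

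Free RNA from lysed epidermal cells can add UMIs to a melanocyte. *Krt5* in the selected early-anagen cells was at 0.0824% of its level in the epidermal barcodes, after cells with 3 or more UMIs of *Krt10* and *Krt14* had been removed, and *Krt10* was at 13.1 CPM. *Nrarp* stood at 59.7 CPM (51.2 to 69.2) and *Jag1* at 67.5 CPM (58.4 to 77.5) in those epidermal barcodes, above their melanocyte levels. *Notch1* stood at 73.9 CPM in them. The part of free RNA in the members' levels was not tested.

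The ratios between the libraries varied with the annotated length of the transcript. Over the 9451 genes with a length, the log2 ratios, bulb over early anagen, had a median of 0.24 for those with a longest transcript of up to 2597 bases, -0.07 for those of up to 4304 bases and -0.93 for longer ones, of which 47.7% were at least 2-fold lower in the bulb. *Notch1*, *Notch2*, *Jag1* and *Rbpj* belong to the longest group, and *Hes1*, *Hey1*, *Hey2* and *Nrarp* to the shortest, of which 18.5% were at least 2-fold lower. The ratios of *Notch1*, *Notch2* and *Jag1* were below the median of their own length group by more than a log2 of 1. That of *Rbpj*, -1.91, was below it by less, and that of *Nrarp* went against the direction of its group. The part of length in these ratios was not tested.

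The comparison of stages was extended to 46 other genes of the pathway, from a list meant to cover the machinery. It was drawn up with earlier results of these data known. Of these 46 genes, 32 reached 5 CPM, of which 14 were at least 2-fold lower and 3 at least 2-fold higher in the bulb. Their median log2 ratio was -0.33, where over all genes 30.1% were lower and 15.5% higher with a median of -0.25. Coactivators, which join the receptor and RBPJ on DNA, were lower for 4 of 6: *Kat2b* with a log2 ratio of -2.36, *Maml1* with -2.22, *Maml3* with -2.14 and *Ep300* with -2.09. Corepressors, which bind RBPJ without the receptor, were lower for 3 of 4, among them *Spen* with a log2 ratio of -2.39. The medians were -2.11 over the 6 coactivators and -1.37 over the 4 corepressors, against the same 30.1% and -0.25 over all genes, and no test was made on these short lists. Genes of the longest transcripts had a median of -0.93, with 47.7% at least 2-fold lower. The part of transcript length in the ratios of the pathway genes was not tested.

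The enzymes that cut the receptor were split, with both proteases lower and the 6 genes of γ-secretase higher in the bulb. Their median log2 ratio was 0.54 over 8 genes. *Adam10*, the protease of the first cut, was at 168 CPM in early anagen and 65.0 CPM in the bulb, a log2 ratio of -1.37 (-1.43 to -1.32). *Adam17*, the other protease on the list, was at 19.6 CPM (18.6 to 20.6) in early anagen and 10.2 CPM (9.40 to 11.1) in the bulb. The 6 genes of γ-secretase compared, which makes the second cut, were higher in the bulb beyond counting error, from 0.15 (0.11 to 0.20) for *Aph1a* to 0.75 (0.71 to 0.78) for *Psenen*. Among all 9456 genes assessed, 3796 were higher beyond counting error, and 0 of the 8 cutting genes were at least 2-fold higher. The total without mitochondrial, ribosomal protein and pigmentation genes, which moves every ratio by -0.15, takes *Aph1a* to about 0. Among genes of receptor turnover 3 of 6 were at least 2-fold lower, *Fbxw7* (-1.98), *Numb* (-1.53) and *Itch* (-1.21), and *Dtx3* was higher (1.07). Over all genes 30.1% were at least 2-fold lower. The median log2 ratio of these 6 genes was -0.20, near that of all genes (-0.25).

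Of other genes on the list, *Mib1*, the ubiquitin ligase by which a sending cell takes up its ligand, was at 47.9 CPM in early anagen and 11.9 CPM in the bulb (log2 ratio -2.01). *Pofut1*, which puts fucose on the receptor, had a log2 ratio of -1.60 and *Rfng*, which extends that sugar, one of 1.22. The target *Myc* had a log2 ratio of -1.61. *Hes6*, a relative of *Hes1* known to act against it, was at 27.8 CPM in early anagen and 98.6 CPM in the bulb, a log2 ratio of 1.83 (1.75 to 1.90).

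**Figure D2:**
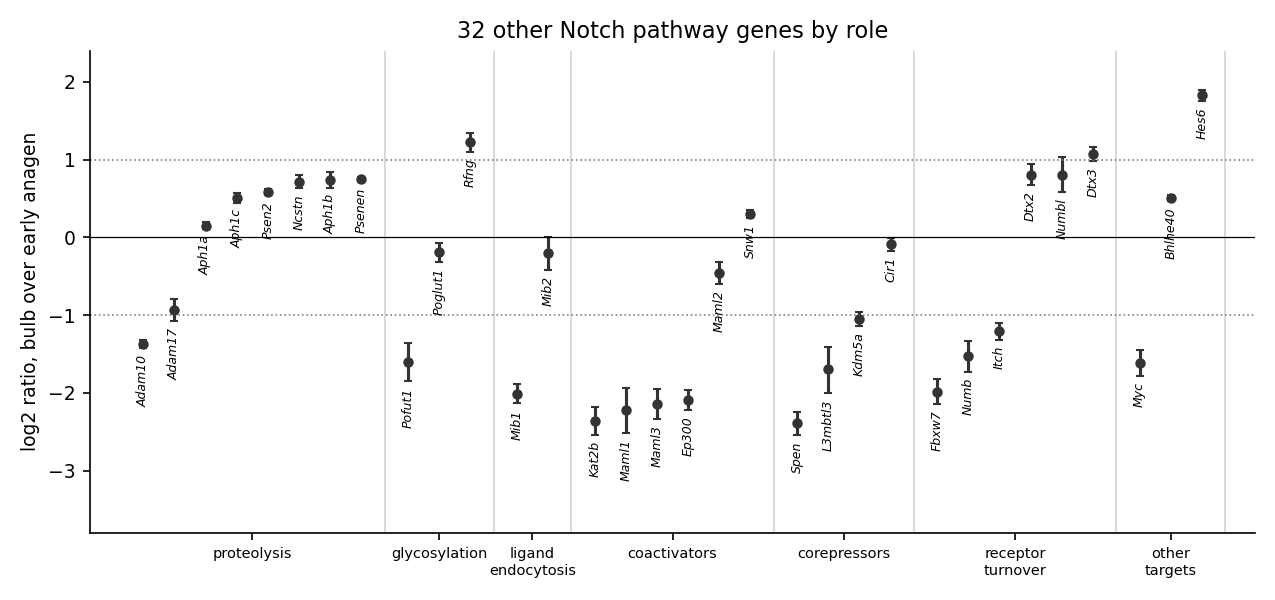
Log2 ratio of bulb over early anagen (points, with 95% intervals for counting error) for the 32 other pathway genes that reached 5 CPM, grouped by role; dotted lines mark 2-fold. Coactivators and corepressors lie mostly below -1, and the γ-secretase genes lie above 0, up to 0.75 for *Psenen*.

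The next comparison asked whether early-anagen McSCs with a UMI of *Oca2*, a late pigmentation gene, differed in the Notch genes from those without. It lay within 1 library and so at 1 chemistry. Each cell was thinned to 10000 UMIs, which left 288 *Oca2*+ cells with at least 1 *Oca2* UMI (10.3%, 9.23 to 11.5) and 2497 *Oca2*- cells. At full depth 454 cells (16.3%) held an *Oca2* UMI, so some *Oca2*- cells had *Oca2* RNA. Of the 75 epidermal barcodes, at a median of 34423 UMIs and not thinned, 1 held an *Oca2* UMI (1.33%). *Jag1* and *Nrarp* were lower in *Oca2*+ cells, both main receptors were lower by a smaller amount, and *Rbpj*, *Hey1* and *Hey2* did not differ beyond counting error.

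*Jag1* stood at 32.5 CPM (30.3 to 34.8) without *Oca2* and 9.03 CPM (5.90 to 13.2) with it, 3.60-fold lower, which is a log2 ratio of -1.85 (-2.47 to -1.29). Its UMIs were found in 23.1% and 8.33% of cells. *Nrarp*, with 340 and 9 UMIs, stood at 13.6 CPM (12.2 to 15.1) and 3.12 CPM (1.43 to 5.93), a log2 ratio of -2.12 (-3.26 to -1.18). These 2 of the 8 assessed members were at least 2-fold lower and 0 at least 2-fold higher, and among all 9341 genes 2.6% and 1.89% were. Over the alternatives tried, the ratio of *Jag1* lay between -2.03 and -1.26 and that of *Nrarp* between -2.66 and -1.27, the latter from all UMIs of each cell without thinning.

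*Notch1* stood at 43.2 CPM (40.7 to 45.9) without *Oca2* and 30.6 CPM (24.5 to 37.6) with it, a log2 ratio of -0.50 (-0.83 to -0.19), and *Notch2* had one of -0.55 (-0.93 to -0.19). *Rbpj* had a log2 ratio of -0.38 (-0.79 to 0.01), *Hey1* of 0.32 (-0.37 to 0.94) and *Hey2* of 0.05 (-0.69 to 0.73). *Hes1* stood at 61.7 CPM (58.7 to 64.9) and 78.1 CPM (68.2 to 89.0), a log2 ratio of 0.34 (0.13 to 0.54). That excess of *Hes1* turned to -0.18 among the 164 *Oca2*+ and 1651 *Oca2*- cells with no *Krt10* or *Krt14* UMI, so no direction is given for it.

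**Figure D3:**
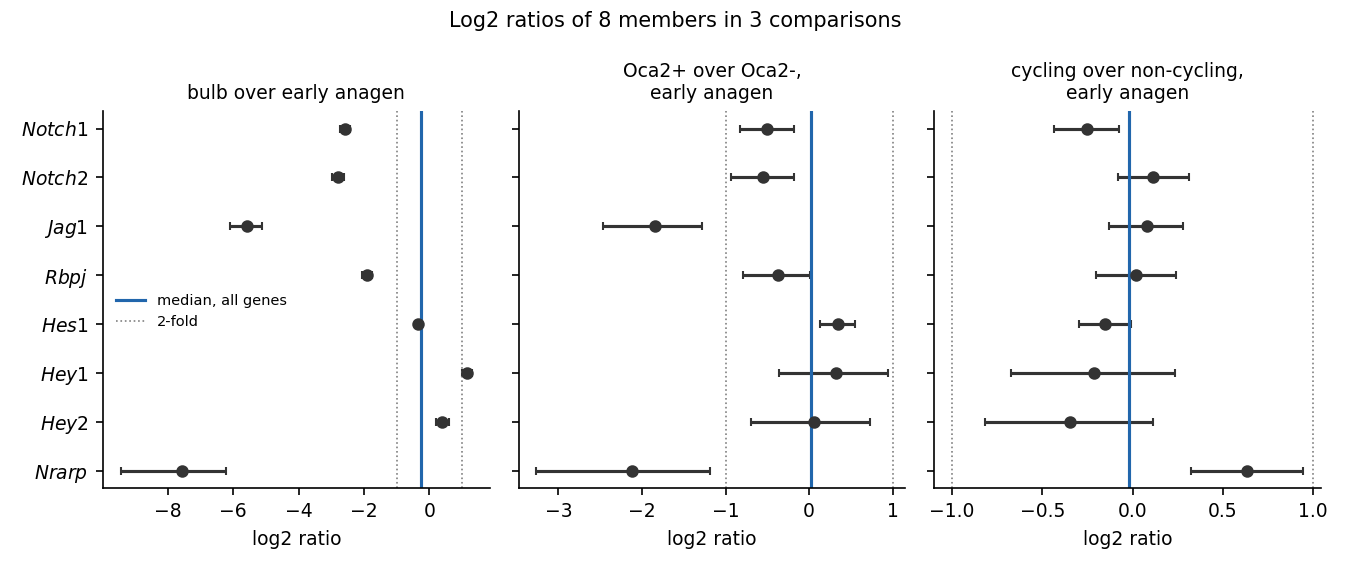
Log2 ratios (points) with 95% intervals for counting error of the 8 assessed members in 3 comparisons, each panel with its own axis; the blue line is the median of all genes and dotted lines mark 2-fold. *Jag1* and *Nrarp* lie beyond 2-fold lower in the first and second panels, and no member does in the cycling comparison.

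Both genes were then followed over the number of *Oca2* UMIs. *Jag1* stood at 32.5 CPM in the 2497 cells with 0 *Oca2* UMIs, 7.69 CPM (3.84 to 13.8) in the 143 cells with 1, 11.5 CPM (4.61 to 23.6) in the 61 cells with 2 and 9.52 CPM (4.11 to 18.8) in the 84 cells with 3 or more. *Nrarp* stood at 13.6, 4.20, 1.64 and 2.38 CPM in these groups, from 340, 6, 1 and 2 UMIs. The intervals of the 3 *Oca2*+ groups overlapped one another for both genes, which leaves their order unresolved at these counts, and each of the 6 lay below the interval of the *Oca2*- cells.

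**Figure D4:**
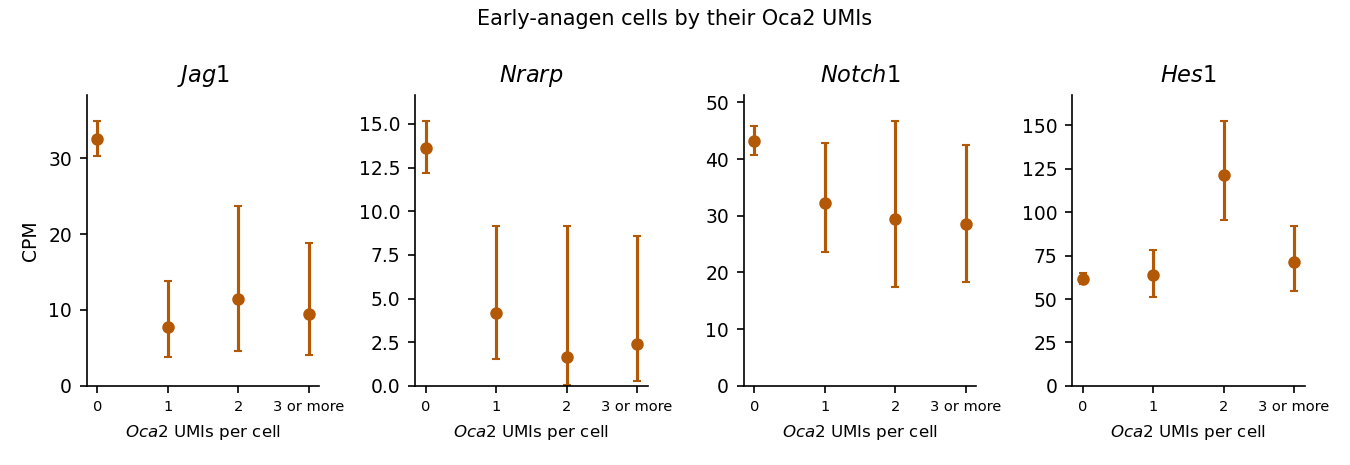
CPM (linear axes from 0) of 4 members in early-anagen cells with 0, 1, 2 and 3 or more *Oca2* UMIs at 10000 UMIs per cell, with 95% Poisson intervals for counting error. *Jag1* and *Nrarp* are lower in each group with *Oca2* than in cells without it, while *Hes1* is highest, at 121 CPM, in the 61 cells with 2 UMIs.

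A smaller share of *Oca2*+ than of *Oca2*- cells was cycling, 74 of 288 against 938 of 2497, so the split was repeated within each class. Among non-cycling cells *Jag1* had a log2 ratio of -2.03 (-2.82 to -1.34) and *Nrarp*, from 6 and 179 UMIs, also -2.03 (-3.50 to -0.88). Among cycling cells the ratios were -1.42 (-2.57 to -0.48) and, from 3 and 161 UMIs, -2.08 (-4.37 to -0.51). Both genes were thus lower in *Oca2*+ cells of either class. The receptors and *Rbpj* were less even. *Notch1* had a log2 ratio of -0.41 (-0.77 to -0.06) among non-cycling cells and one past 2-fold, -1.04 (-1.92 to -0.27), among cycling cells, the latter from 14 and 364 UMIs. *Notch2* had -0.75 (-1.24 to -0.30) and -0.08 (-0.74 to 0.52), so among cycling cells it did not differ beyond counting error. *Rbpj* had -0.23 (-0.69 to 0.20) and, from 11 and 254 UMIs, -0.87 (-1.89 to -0.0014). The intervals of the classes overlapped for each of these 3 genes.

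Markers of other cell types were measured in the same split. Epidermal markers of *Oca2*+ and *Oca2*- cells summed to 34.03 and 32.7 CPM. Endothelial ones summed to 16.7 and 13.9 CPM, nearly all *Egfl7*, at 16.3 and 13.9 CPM. Fibroblast markers summed to 4.51 and 1.28 CPM, mostly *Col1a2*, a collagen gene, at 3.82 and 0.92 CPM, with *Lum* at 0 in both. Immune markers summed to 8.33 and 21.8 CPM, the latter mostly *Cd74*, the invariant chain of antigen presentation, at 1.39 and 16.7 CPM (log2 ratio -3.59, -5.47 to -2.22), with *Cd3e* at 0 in both. Melanocyte markers summed to 40802 and 23797 CPM. The part of these differences in the members' ratios was not tested. Of the other pathway genes, 31 were assessed in this split, and 0 were at least 2-fold lower. *Aph1c*, a γ-secretase subunit, was at least 2-fold higher in *Oca2*+ cells (104 against 46.3 CPM, log2 ratio 1.17, 0.98 to 1.35), and *Adam10* had a log2 ratio of 0.70 (0.58 to 0.81). The coactivators and corepressors, lower in the bulb, had median log2 ratios of -0.02 and -0.12 here.

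Set beside the bulb, *Oca2*+ early-anagen cells were still higher in *Jag1*, with 9.03 against 0.63 CPM (log2 ratio of bulb over *Oca2*+ cells -3.85, -4.62 to -3.06). For *Notch1* that ratio was -2.21 (-2.55 to -1.86), for *Notch2* -2.33 (-2.73 to -1.92) and for *Rbpj* -1.57 (-1.97 to -1.15). These ratios share the bulb cells with the comparison above. *Nrarp*, with 9 UMIs in *Oca2*+ cells and 4 in the bulb, stayed under 5 CPM in both.

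Within the bulb at 5000 UMIs per cell, 3218 cells held an *Oca2* UMI and 516 did not, where at full depth 3591 of 3734 did. *Hey1* stood at 16.7 CPM (14.7 to 18.8) in the former and 26.7 CPM (20.8 to 33.8) in the latter, a log2 ratio of -0.68 (-1.07 to -0.28). *Hes1* had a log2 ratio of -0.39 (-0.64 to -0.13) and *Notch1* of 0.65 (-0.24 to 1.70), the latter from 108 and 11 UMIs. *Jag1* and *Nrarp* had at most 8 UMIs in either group and were not compared.

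The last comparison set cycling early-anagen cells, with at least 1 UMI of *Mki67* or *Top2a* at 10000 UMIs per cell (1012 cells, 36.3%), against the 1773 others. *Nrarp* was higher in cycling cells, *Notch1* was slightly lower, *Hes1* was lower by an amount that did not hold in all cells compared, and the other 5 assessed members did not differ beyond counting error. Of the 8, 0 were at least 2-fold lower and 0 at least 2-fold higher, against 0.678% and 4.89% of all 9292 genes.

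*Nrarp* stood at 10.4 CPM (8.98 to 12.1) in non-cycling and 16.2 CPM (13.8 to 18.9) in cycling cells, a log2 ratio of 0.64 (0.32 to 0.95). It was at 12.2 CPM (9.12 to 16.01) in cells with 1 to 2 UMIs of the cycle genes, 15.6 CPM (11.4 to 20.7) with 3 to 9 and 22.9 CPM (17.7 to 29.2) with 10 or more. The highest of these groups was above the lowest beyond counting error. *Jag1* went from 34.7 CPM (29.4 to 40.8) to 23.9 CPM (18.6 to 30.4) between the same end groups, with intervals that overlapped, and its ratio over all cycling cells was 0.08 (-0.13 to 0.28).

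*Notch1* stood at 44.5 CPM in non-cycling and 37.4 CPM in cycling cells, a log2 ratio of -0.25 (-0.43 to -0.07), and *Hes1* had one of -0.15 (-0.30 to -0.01), which turned to 0.27 without the cells highest in the dissociation genes described next. *Notch2* (0.12, -0.08 to 0.31) and *Rbpj* (0.02, -0.20 to 0.24) were close to 0. Cycling cells were deeper before thinning, at a median of 34187 UMIs against 21066, and these dissociation genes had a median log2 ratio of -0.51 in them. The part of either in these ratios was not tested. In the bulb 60 cells were cycling at 5000 UMIs, too few to compare members.

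*Hes1* was spread over early-anagen cells far more unevenly than the other members. At 10000 UMIs per cell its variance was 5.04 times its mean, where random sampling at 1 common level gives 1, and it had 0 UMIs in 70.6% of cells, where such sampling gives 53.0%. The 278 cells with the most *Hes1* held 65.7% of its UMIs, and 1 cell held 36. The ratio was 1.53 for *Jag1*, 1.51 for *Nrarp*, 1.19 for *Hey1* and 1.097 for *Notch1*. At 5000 UMIs per cell that of *Hes1* was 2.67 in early anagen and 1.59 in the bulb. The counting intervals given for *Hes1* therefore understate its spread between cells.

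Cells with more *Hes1* tended to hold more of genes that cell dissociation is known to raise. Over 2785 cells and 7178 genes, the 3 genes most correlated with *Hes1* were *Hspa1a* (r = 0.34) and *Hspa1b* (r = 0.32), heat shock chaperones, and *Fos* (r = 0.24), an immediate early gene. For *Notch1*, *Notch2*, *Rbpj* and *Jag1* the highest correlation of any gene was between 0.09 and 0.17, too weak to read in sparse counts, and correlations between members lay between -0.05 and 0.08. All these points share 1 library.

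Early-anagen cells were put in 3 equal groups by their summed UMIs of 16 immediate early and dissociation genes, a list that leaves out *Hes1*. *Hes1* stood at 34.2 CPM (30.5 to 38.1) in the lowest group, 41.2 CPM (37.1 to 45.5) in the middle one and 115 CPM (108 to 122) in the highest. *Jag1* went from 19.1 CPM (16.4 to 22.1) to 33.4 and 37.8 CPM (33.9 to 41.9), and *Notch1* from 34.4 CPM (30.7 to 38.4) to 44.8 and 46.5 CPM (42.2 to 51.1). *Hey2* went from 5.39 CPM (4.00 to 7.10) to 9.26 CPM (7.40 to 11.4) between the lowest and highest groups. *Hey1*, from 6.14 to 8.72 CPM, and *Nrarp*, from 10.9 to 15.4 CPM, were also highest there, with intervals that overlapped those of the lowest group. In the bulb *Hes1* went from 38.3 CPM (33.6 to 43.4) to 46.3 and 58.2 CPM (52.3 to 64.5), and its intervals in the lowest group of each library overlapped, although these groups differ in depth and held a median of 15 and 3 UMIs of the list.

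**Figure D5:**
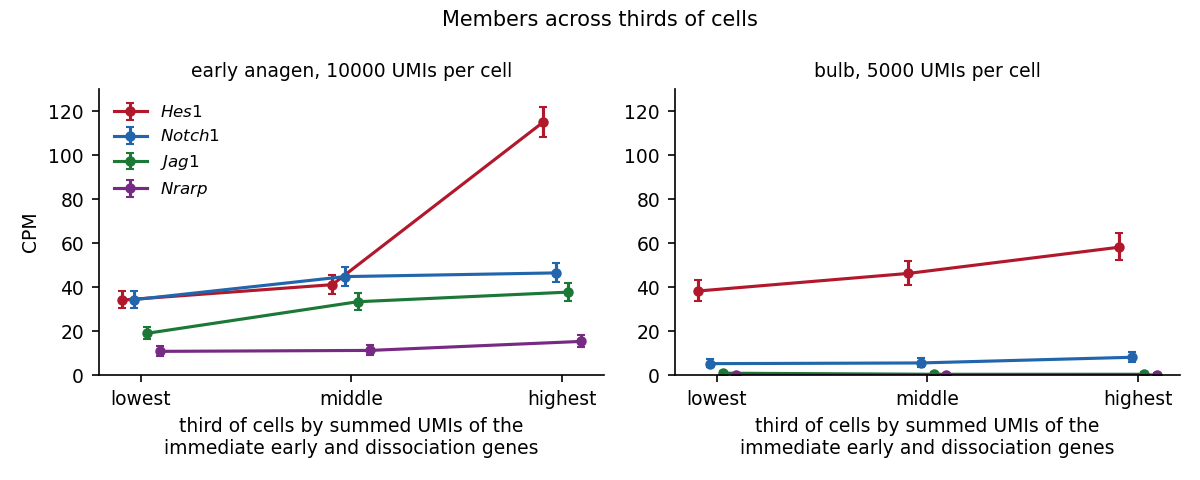
CPM of 4 members in cells of the lowest, middle and highest group by summed UMIs of the immediate early and dissociation genes, in early anagen (left, 10000 UMIs per cell) and the bulb (right, 5000 UMIs per cell), with 95% Poisson intervals for counting error. *Hes1* reaches 115 CPM in the highest early-anagen group from 34.2 CPM in the lowest. *Nrarp* goes from 10.9 to 15.4 CPM between these groups, with intervals that overlap, and is at most 0.16 CPM in the bulb.

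Between the libraries this list was not level either. Of its 16 genes, 7 were at least 2-fold lower and 1 at least 2-fold higher in the bulb, against 30.1% and 15.5% of all genes. *Hspa1a* stood at 351 CPM in early anagen and 5.06 CPM in the bulb, and *Hspa1b* at 257 and 0.13 CPM. By contrast, 4 of the 16 were higher in the bulb beyond counting error, among them *Fos* (log2 ratio 0.78) and *Dusp1* (2.62). Over the list the median log2 ratio was -0.89, and the dissociation of the 2 tissues differed. In the *Oca2* split its median log2 ratio was -0.13, and among the 215 *Oca2*+ and 1641 *Oca2*- cells outside the highest group the ratio of *Jag1* was -1.95 and that of *Nrarp* -1.90. The part of dissociation in the levels of *Hes1* and *Jag1* was not tested.

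Targets were set against the detection of other members in the same early-anagen cells. Beyond counting error, the 282 cells with a *Nrarp* UMI had more *Hes1*, *Hey1* and *Hey2* than the 2503 cells without. *Hes1* stood at 95.4 against 59.8 CPM (log2 ratio 0.67, 0.48 to 0.86), *Hey1* at 12.8 against 6.19 CPM (1.04, 0.48 to 1.57) and *Hey2* at 10.6 against 6.27 CPM (0.76, 0.15 to 1.33). *Jag1* was also higher in them, at 44.7 against 28.4 CPM (0.65, 0.37 to 0.93), whereas *Notch1* had one of 0.09 (-0.19 to 0.36). The correlations of *Nrarp* were r = 0.06 with *Hes1*, 0.06 with *Hey1*, 0.05 with *Hey2* and 0.07 with *Jag1*, too weak to read. The variance of *Hes1* over all early-anagen cells was 5.04 times its mean, so its interval here is too narrow and no direction is given for it. The levels of *Hes1*, *Hey1*, *Hey2*, *Nrarp* and *Jag1* were each highest in the cells with the most dissociation genes, as given above. So was that of *Notch1*, which did not differ beyond counting error in this split. The part of the dissociation genes in this split was not tested.

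In the 601 cells with a *Jag1* UMI, *Hey2* (0.60, 0.12 to 1.06), *Nrarp* (0.55, 0.20 to 0.89) and *Notch1* (0.29, 0.10 to 0.48) were higher than in the 2184 cells without, and *Hes1* (0.13, -0.03 to 0.29) and *Hey1* (-0.15, -0.70 to 0.37) did not differ beyond counting error. The correlations of *Jag1* were r = 0.07 with *Hey2*, 0.07 with *Nrarp* and 0.05 with *Notch1*, too weak to read. The part of the dissociation genes in this split was not tested either.

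In cells with a UMI of *Notch1* or of *Notch2*, *Hes1* was lower beyond counting error, and *Hey1*, *Hey2* and *Nrarp* did not differ beyond it. Over all early-anagen cells the variance of *Hes1* was 5.04 times its mean, so its intervals here are too narrow. Its correlations with *Notch1* (r = -0.03) and *Notch2* (r = -0.05) were also too weak to read, so no direction is given for it. In the 916 cells with *Notch1*, against the 1869 without, the log2 ratio was -0.20 (-0.35 to -0.06) for *Hes1*, -0.28 (-0.76 to 0.18) for *Hey1*, 0.25 (-0.20 to 0.70) for *Hey2* and -0.01 (-0.35 to 0.31) for *Nrarp*. In the 737 cells with *Notch2* it was -0.45 (-0.62 to -0.28) for *Hes1*, -0.06 (-0.56 to 0.42) for *Hey1*, 0.25 (-0.23 to 0.71) for *Hey2* and 0.20 (-0.15 to 0.54) for *Nrarp*. The ratio of *Hes1* in the 625 cells with *Rbpj* was -0.01 (-0.17 to 0.16). At about 1 UMI or fewer per cell, a cell without a UMI is not a cell without the RNA.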

How the data were processed

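The authors deposited 1 matrix of raw UMI counts per gene and barcode for each library, made, per the submitters' processing notes, with Cell Ranger 6.0.1 on mm10. Selection, totals and CPM were computed here from these counts as deposited (Python 3.11.15, numpy 2.4.6, scipy 1.17.1, pandas 2.3.3), with barcodes shared by both libraries counted (1 in all, 0 selected). The keratin limit removes mixed melanocyte and keratinocyte barcodes, and no doublet caller was run. Early-anagen cells were thinned at random to 10000 UMIs for the *Oca2* and cycling splits, and cells of both libraries to 5000 UMIs for shares. Intervals are exact Poisson for CPM, exact binomial for ratios and Clopper-Pearson for shares. Only those for ratios, of bulb over early anagen, were tested on simulated counts. These counts were drawn with Poisson error alone, so the test does not cover spread between cells. Genes under 5 CPM in both groups compared were not assessed. A limit of 3 counts stands in for 0 where it lies below the other group. Of the list of 8 hair matrix markers, *Krt85* had no entry. Epidermal barcodes met the quality limits and held more UMIs of *Krt5*, *Krt14*, *Krt1* and *Krt10* than of *Dct*, *Tyrp1*, *Pmel* and *Mlana*.

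The members and lists were chosen with earlier results of these data known. Named are all members, every other ligand, the 4 other pathway genes of largest ratio past 2-fold per direction and comparison, and, per member found in at least 20% of cells, the 3 genes of highest correlation among those found in at least 10%. *Notch4*, *Ep300*, *Adam10*, *Adam17*, *Aph1a*, *Psenen*, *Fbxw7*, *Numb*, *Itch*, *Mib1*, *Pofut1*, *Myc*, *Col1a2*, *Egfl7* and *Cd74* were named after their values were seen. Of the pathway list, 2 genes are not reported here. The alternatives were other selection limits, thinning, scaling (edgeR TMM) and low-value filters. Gene positions are from GENCODE M21 on GRCm38 and the files' own annotation release was not compared with it.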

Additional observations from a re-analysis of the deposited data

Results flagged for a closer look

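The 593 bulb-library barcodes that the selection left out fail the UMI, mitochondrial, *Dct* or keratin limits. In them, 5 members stood above the level in selected bulb melanocytes beyond counting error. The share of all genes that did so was not computed, so this count is no result about the members. *Hes1* stood at 106 CPM (93.3 to 120) in these barcodes and *Notch1* at 15.8 CPM (11.1 to 21.9). *Jag1* stood at 3.95 CPM (1.81 to 7.50) and *Notch3* and *Nrarp* at 2.19 CPM each (0.713 to 5.12). *Nrarp* and *Notch3* rest on 5 UMIs each and *Jag1* on 9. *Hey1* went the other way, at 8.78 CPM (5.36 to 13.6) against 15.8 CPM (14.8 to 16.9) in the selected cells. The cell types of these barcodes were not determined.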

How the results depend on the processing

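Each comparison was repeated under the alternatives. The number of members at least 2-fold lower was 5 in the bulb under 10 of 11 alternatives and 6 with no filter on low values, which lets *Heyl* in, and it was 0 in cycling cells under all tried. In *Oca2*+ cells it was 2 except among cycling cells alone, where it was 3 with *Notch1* (log2 ratio -1.04, from 14 UMIs in *Oca2*+ cells). The number at least 2-fold higher in the bulb became 0 with the reduced total (no mitochondrial, ribosomal protein or pigmentation genes) and 2 with no filter, which lets in *Notch3* from 7 UMIs. In *Oca2*+ cells it became 1 with cells thinned to 5000 UMIs (*Hey2*, log2 ratio 1.11) and 1 with no filter (*Notch3*, from 2 UMIs), and in cycling cells 1 at 5000 UMIs (*Nrarp*, 1.02). No called ratio changed sign. Among ratios under 2-fold, *Hes1* and *Hey2* changed sign in the *Oca2* split, and *Notch2*, *Rbpj*, *Hes1*, *Hey1*, *Hey2* and *Jag1* in the cycling split, under at least 1 alternative. The restrictions to cells outside the highest group of dissociation genes and to cycling cells in the *Oca2* split were added after seeing the data. No paired analysis was possible because each condition has 1 library. Depth limits the ratios of *Nrarp*, which rests on 4 UMIs in the bulb and 9 in *Oca2*+ cells.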
